A study of Penicillium oxalicum with 6 samples.

Results

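The data described here are the transcript levels of 3 genes for the storage glucan glycogen in *Penicillium oxalicum*, a filamentous fungus used to produce raw-starch-degrading enzymes. They are *POX_a00097* (glycogen synthase), *POX_d05520* (1,4-α-glucan-branching enzyme) and *POX_c03592* (putative phosphorylase, listed by the study under glycosyltransferase family GT35). They were picked by their IDs out of 9822 annotated genes, and all 3 were present in every library. The choice was made with the difference between the strains in these same libraries already known. The strain differences of the 3 genes and the ratios between them are therefore given as a description, without a test.

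RNA-seq was run on mycelia of mutant TE4-10 and of the engineered strain GXUR001. TE4-10 comes from strain A2-13 through chemical and gamma-ray mutagenesis, and both strains descend from Δ*PoxKu70* and overexpress the glucoamylase gene *PoxGA15A* from a cellulose-inducible promoter, so neither is a wild type although the labels mark TE4-10 as WT. GXUR001 also lacks the repressor gene *PoxCxrC* and overexpresses the activator gene *PoxAmyR* (*POX_f08097*). Both changes were made in 1 strain and their effects cannot be told apart. Mycelia grew in glucose for 24 h and then for 24 h in an induction medium, in which the labels name raw starch as the carbon source and the study's text wheat bran plus Avicel. Libraries were available for GXUR001 replicates 1, 2 and 3 and for TE4-10 replicates 1 and 3, so n = 3 and n = 2. TE4-10 replicate 2 was not analysed here.

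Glycogen is a branched polymer of glucose that fungi and animals keep inside the cell as a carbon and energy reserve. Glycogen synthase adds glucose from UDP-glucose to the ends of α-1,4-linked chains, and the branching enzyme moves short pieces of a chain to make α-1,6 branch points. Glycogen phosphorylase, the activity of family GT35, works in the other direction and releases glucose-1-phosphate from chain ends. Glycogen and the disaccharide trehalose are the main reserve carbohydrates of *Saccharomyces cerevisiae*, in which these enzymes are well described.

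The deposited unit was FPKM, in which fragments are scaled to the length of the gene and to the size of the library, which allows genes of different length to be compared within a library. The number of reads behind each value was not given. Low FPKM values lie on steps of whole reads, and the most frequent ratio of such values, over 73 to 108 genes per pair of libraries from both strains, gave the GXUR001 libraries a depth of 1.04 to 1.10 times that of the TE4-10 libraries. In FPKM as deposited the median log2 difference of all 9636 genes tested was -0.26 (GXUR001 minus TE4-10), so libraries were also scaled by median ratios, which brought this median to 0.00. Values after that step are called rescaled. The overexpressed *PoxAmyR* had 62.8 and 66.7 FPKM in the TE4-10 libraries, against 74.3 to 90.6 FPKM in those of GXUR001. The GXUR001 mean was 128% of the TE4-10 mean as deposited and 156% after rescaling (log2 difference 0.62, standard error 0.16). No ID is paired with *PoxCxrC* in the tables used here, and no gene for conidia was annotated in them, so neither the deletion nor the labelled cell type was checked.

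All 3 glycogen genes had lower FPKM in every GXUR001 library than in any TE4-10 library. As deposited, the median log2 difference of all genes tested was itself -0.26, and the share of genes apart in this way was not computed. After rescaling, 26.5% of all genes tested had non-overlapping values with GXUR001 lower. The putative phosphorylase was furthest apart, the synthase came next and the branching enzyme was closest. In bulk RNA, a smaller share of cells with a transcript and less of it per cell cannot be told apart.

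Glycogen synthase *POX_a00097*, the enzyme that lengthens the chains, had 105 and 113 FPKM in replicates 1 and 3 of TE4-10. In GXUR001 replicates 1, 2 and 3 it was at 49.3, 49.7 and 47.0 FPKM. The lowest TE4-10 value was 2.11 times the highest GXUR001 value. The GXUR001 libraries lay close together as deposited, with an SD of 2.92% of the mean, and less so after rescaling, with 56.1, 53.9 and 47.2 and an SD of 8.80% of the mean. The TE4-10 mean of 109 ± 5.71 FPKM (SD, n = 2) compared with 48.7 ± 1.42 FPKM (SD, n = 3), which is 44.7% of the TE4-10 level as deposited and 54.1% after rescaling. The log2 difference of rescaled values was -0.87 (standard error 0.11).

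The study names the branching enzyme *POX_d05520* among its starch-active genes and reports it as downregulated in GXUR001. It had 124 and 146 FPKM in replicates 1 and 3 of TE4-10. It was at 64.0, 70.8 and 87.2 FPKM in GXUR001 replicates 1, 2 and 3. It had the widest spread of the 3 genes in both strains, with an SD of 11.8% of the mean in TE4-10 and 16.1% in GXUR001 (14.6% and 9.63% after rescaling), and GXUR001 replicate 3 lay nearest to TE4-10. GXUR001 had 54.8% of the mean TE4-10 level as deposited and 65.9% after rescaling (log2 difference -0.59, standard error 0.13). The lowest TE4-10 value was 1.42 times the highest GXUR001 value.

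The putative phosphorylase *POX_c03592*, annotated in the family that breaks the chains down, had 152 and 155 FPKM in replicates 1 and 3 of TE4-10. It was at 40.0, 42.8 and 48.0 FPKM in GXUR001 replicates 1, 2 and 3. No library of either strain came near the other strain, and the lowest TE4-10 value was 3.17 times the highest GXUR001 value. The GXUR001 mean of 43.6 ± 4.05 FPKM (SD, n = 3) was 28.4% of the TE4-10 mean of 154 ± 2.30 FPKM (SD, n = 2) as deposited. After rescaling, GXUR001 had 34.2%, and the 3 rescaled GXUR001 values of 45.5, 46.5 and 48.2 lay closer together than the deposited ones (log2 difference -1.53, standard error 0.08).

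**Figure D1:**
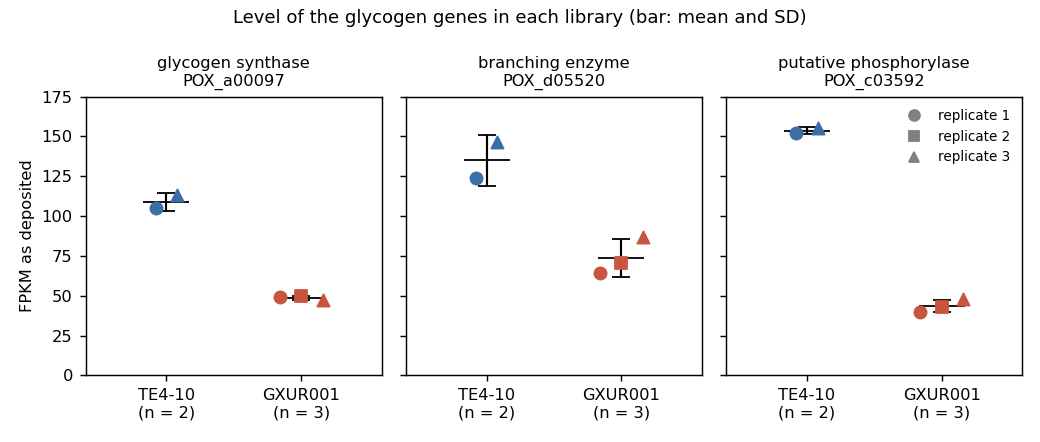
FPKM as deposited (vertical axis) of the 3 glycogen genes in each library of TE4-10 (n = 2) and GXUR001 (n = 3), with marker shape for the replicate and black bars for mean and SD. In each panel all GXUR001 points lie below both TE4-10 points, with the widest gap for the putative phosphorylase (152 and 155 against 40.0 to 48.0 FPKM).

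The rescaled values of the strains did not overlap in 3 of the 3 genes, always with GXUR001 lower. Over all genes tested, 26.5% had such non-overlapping values with GXUR001 lower, and nothing is read from the count of the 3 since this contrast chose them. Of the 9636 genes, 1.34% had a log2 difference as low as or lower than that of the putative phosphorylase. The corresponding shares were 4.01% for glycogen synthase and 8.81% for the branching enzyme. The phosphorylase thus stood at place 129 from the lowest, the synthase at 386 and the branching enzyme at 849.

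**Figure D2:**
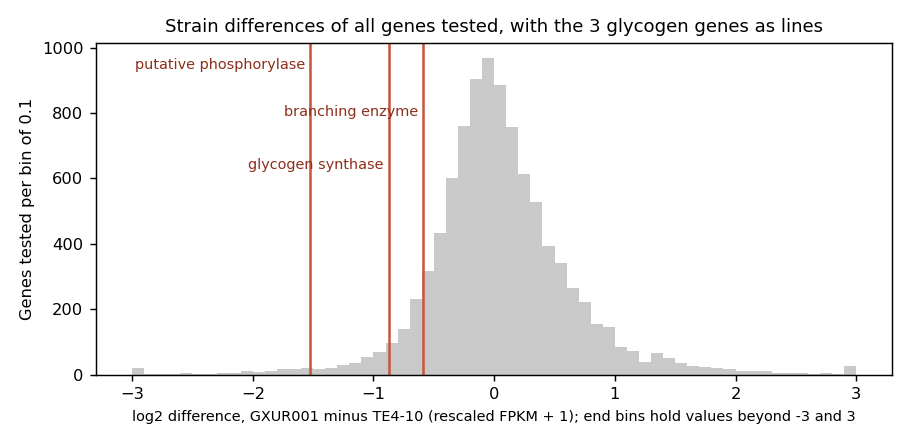
Number of genes (vertical axis, bins of 0.1) by log2 difference of rescaled FPKM + 1 between GXUR001 and TE4-10 for the 9636 genes tested, with red lines at the 3 glycogen genes. The lines lie in the lower tail at -0.59, -0.87 and -1.53.

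The 3 genes were all above the middle of the transcriptome in both strains. In TE4-10 the putative phosphorylase was higher than 86.1% and 87.1% of the annotated genes in replicates 1 and 3, and in the GXUR001 libraries it was higher than 64.7% to 66.1%. Glycogen synthase was above 80.0% and 82.3% of the annotated genes in TE4-10 and above 65.7% to 69.4% in GXUR001. For the branching enzyme these shares were 82.9% and 86.3% against 74.7% to 78.7%.

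A ratio of 2 genes within a library does not depend on how libraries are scaled. None of the 3 ratios overlapped between the strains in these libraries. The share of other gene pairs with non-overlapping ratios was not computed, and the same contrast chose the genes, so nothing is read from this count. The order of the FPKM levels in TE4-10 was the same in both replicates, with the putative phosphorylase highest, then the branching enzyme, then the synthase. In GXUR001 the branching enzyme was the highest in all 3 libraries. The order of the other two was not the same throughout, since the synthase was above the phosphorylase in replicates 1 and 2 and just below it in replicate 3 (47.0 against 48.0 FPKM).

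The phosphorylase had 1.45 and 1.38 times the FPKM of the synthase in TE4-10 replicates 1 and 3, so the transcript for breakdown was the more abundant one. In GXUR001 replicates 1, 2 and 3 the ratio was 0.812, 0.861 and 1.02. The strains did not overlap, and the log2 ratio was 0.50 ± 0.05 (SD, n = 2) in TE4-10 and -0.16 ± 0.17 (SD, n = 3) in GXUR001. The geometric mean ratio of TE4-10 was 1.58 times that of GXUR001.

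The phosphorylase over the branching enzyme gave the widest gap of the 3 ratios, with 1.23 and 1.06 in TE4-10 and 0.625, 0.605 and 0.550 in GXUR001. The ratio was above 1 in every TE4-10 library and below 1 in every GXUR001 library. The geometric mean of TE4-10 was 1.93 times that of GXUR001.

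The synthase over the branching enzyme had ratios of 0.848 and 0.773 in TE4-10, against 0.770, 0.702 and 0.539 in GXUR001. The groups were apart by almost nothing, since the lowest TE4-10 ratio was 1.00 times the highest GXUR001 ratio, and the log2 difference of -0.29 was close to the SD within GXUR001 of 0.27. Without GXUR001 replicate 3 this log2 difference was -0.14, so that library carried much of it.

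Taken as shares of the summed FPKM of the 3 genes, the phosphorylase made up 39.9% and 37.5% in TE4-10 and 26.1% to 26.3% in GXUR001. The branching enzyme made up 32.5% and 35.3% in TE4-10 and 41.8%, 43.4% and 47.9% in GXUR001. The share of the synthase overlapped between the strains, with 27.6% and 27.3% in TE4-10 and 25.8% to 32.1% in GXUR001. The sum itself was 381 and 415 FPKM in TE4-10 and 153, 163 and 182 FPKM in GXUR001.

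**Figure D3:**
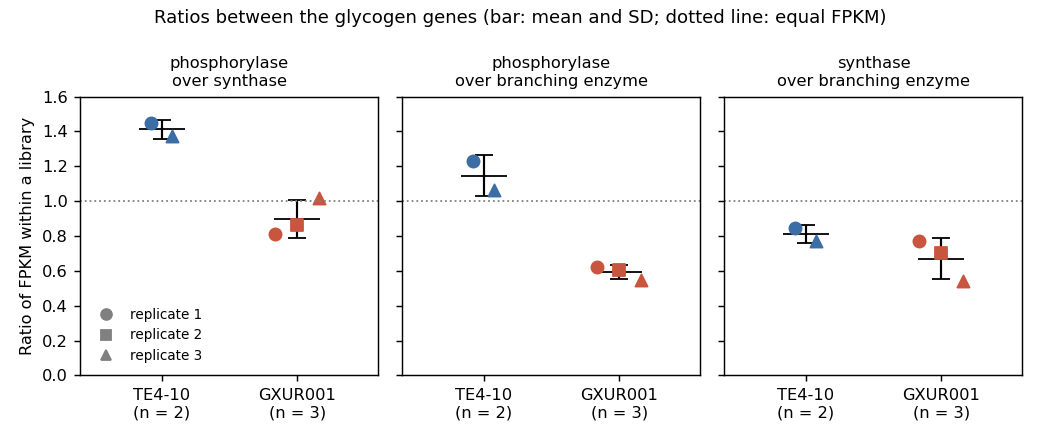
Ratio of FPKM within a library (vertical axis) for each pair of the 3 glycogen genes in TE4-10 (n = 2) and GXUR001 (n = 3), with bars for mean and SD and a dotted line at equal FPKM. The phosphorylase over the branching enzyme lies at 1.06 to 1.23 in TE4-10 and at 0.550 to 0.625 in GXUR001, while the synthase over the branching enzyme reaches 0.773 and 0.770 at the nearest points.

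Levels were also taken relative to actin (*POX_c04656*), which the study used as the internal reference of its RT-qPCR. Actin itself averaged 2172 FPKM (SD 189, n = 2) in the TE4-10 libraries and 1696 FPKM (SD 51.0, n = 3) in the others, and after rescaling the strains overlapped (log2 difference -0.08, and 0.0375 without TE4-10 replicate 3). Per 1000 FPKM of actin, glycogen synthase had 51.5 and 49.0 FPKM in TE4-10 and 28.2, 29.4 and 28.5 FPKM in GXUR001. The phosphorylase had 74.6 and 67.4 against 22.8, 25.4 and 29.1 on the same scale. The branching enzyme had 60.7 and 63.5 against 36.6, 42.0 and 52.8. All 3 genes were apart between the strains relative to actin, the synthase with little spread within either strain and the branching enzyme with the narrowest gap. The share of all genes apart on this scale was not computed. The same contrast chose the 3 genes, so nothing is read from their count.

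Beside the 3 genes, the study's list of changed genes holds 4 others that were grouped here under storage glucan, UDP-glucose supply or trehalose. The storage glucan gene was placed there by its CBM21 module alone. No product names were at hand for the rest of the genome, so other genes of the pathway were not counted. The study chose these 4 as changed on the same strains, so they are not independent evidence of a direction. Over all genes tested, limma with Benjamini-Hochberg adjustment called 8.08% lower and 9.74% higher in GXUR001 at an adjusted p under 0.05 (779 and 939 genes, against 2198 and 463 with FPKM as deposited, 1054 and 794 with upper quartile scaling, and 193 and 592 when scaled to actin). Of the 4 genes, 2 were called lower and 0 higher, and at an unadjusted p under 0.05 limma gave 3 lower and 0 higher, where 16.8% and 18.8% of all genes tested were lower and higher. Their median log2 difference was -0.43, against 0.00 over all genes tested.

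*POX_a01579*, a hypothetical protein listed with the carbohydrate-binding modules CBM21 and CBM25, fell most of the 4. Modules of family CBM21 bind starch and glycogen and occur in animals and yeast in the subunits that bring protein phosphatase 1 to glycogen. The gene was at 81.4 and 78.7 FPKM in TE4-10 and at 28.6, 26.6 and 31.2 FPKM in GXUR001, well apart in every library. Its log2 difference was -1.18 (standard error 0.09, limma adjusted p = 0.0064, and 0.0040 to 0.10 in the alternatives), a size between those of the phosphorylase and the synthase.

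Neutral trehalase (*POX_a01681*), which splits trehalose into glucose, fell from 39.9 and 36.1 FPKM to 19.7, 18.4 and 21.7 FPKM. Its log2 difference was -0.63 (standard error 0.10, limma adjusted p = 0.017, and 0.0094 to 0.13 in the alternatives). The putative trehalose-phosphate synthase (*POX_a01789*), which makes the precursor of trehalose, was at 104 and 165 FPKM in TE4-10 and at 131, 140 and 148 FPKM in GXUR001. The strains overlapped and the log2 difference of 0.36 (standard error 0.21) did not pass the test (limma adjusted p = 0.28, and 0.014 to 0.98 in the alternatives). This value rested on 1 library, since it was 0.72 and called without TE4-10 replicate 3 and -0.0044 without TE4-10 replicate 1.

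The putative UTP-glucose-1-phosphate uridylyltransferase (*POX_b02038*), which makes the UDP-glucose that glycogen synthase uses, was at 309 and 322 FPKM in TE4-10 and at 218, 218 and 226 FPKM in GXUR001. The strains did not overlap, but after rescaling the log2 difference of -0.24 (standard error 0.09) did not pass the test (limma adjusted p = 0.13, and 0.017 to 0.53 in the alternatives). With FPKM as deposited it was -0.51 and called. Without GXUR001 replicate 2, 0 of the 4 pathway genes were called by limma, while 2 lower genes had an unadjusted p under 0.05, and without GXUR001 replicates 1 and 3 in turn, 1 was called. The fit without GXUR001 replicate 2 called 17 of 9631 genes in all (1 lower and 16 higher), and 11.1% of all genes were lower and 12.8% higher at an unadjusted p under 0.05.

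Starch outside the cell is the same kind of glucan as glycogen, and the study names 6 genes with an ID for its breakdown. The amylase genes *PoxGA15A* and *PoxAmy13A*, which the study reports as higher in GXUR001, had no ID paired with them here. They are not among the 6, so the values below do not cover them. Of these 6, 1 was called lower and 1 higher by limma, where 8.08% and 9.74% of all genes tested were, and their median log2 difference was -0.34, against 0.00 over all genes. The α-glucosidase gene *POX_e06687* had a log2 difference of -0.96 (standard error 0.11), close in size to that of glycogen synthase. The starch-oxidising monooxygenase gene *PoxAA13* (*POX_g09282*) was higher in GXUR001 by 1.95 on the log2 scale (standard error 0.15). The rest of the 6 did not pass the test and had log2 differences of -0.40 to 0.35. Among them, the glucoamylase gene *POX_b02418* was at 0.35 (standard error 0.09, limma adjusted p = 0.053). Its rescaled values did not overlap between the strains. The study reports this gene as higher in GXUR001, by RNA-seq and by RT-qPCR. The log2 difference was -0.37 for *POX_f08248* (standard error 0.18) and -0.31 for *POX_b03245* (standard error 0.11). The study reports both of these as downregulated. It chose the starch genes too on the same strains. Without GXUR001 replicate 2, 0 of the 6 were called by limma and 2 had an unadjusted p under 0.05, against 17 called and 23.9% under that p among all 9631 genes of the fit.

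**Figure D4:**
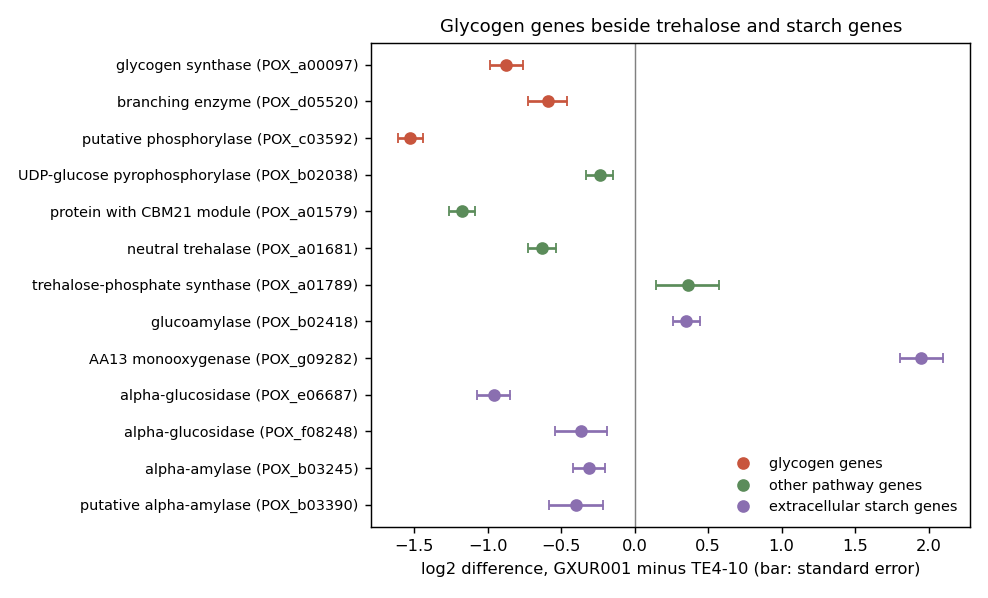
Log2 difference of rescaled FPKM + 1 between GXUR001 and TE4-10 (horizontal axis, bars are standard errors). Shown are the 3 glycogen genes, the 4 other pathway genes and the 6 genes grouped here as extracellular starch genes. The glycogen genes lie between -1.53 and -0.59, the CBM21 gene *POX_a01579* lies among them at -1.18, and *PoxAA13* lies at 1.95.

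The genes next to the 3 glycogen genes did not share one direction. Of the 18 annotated genes within 3 places on either side, 15 passed the filter on low FPKM, and limma called 1 lower and 1 higher, with a median log2 difference of 0.03 (8.08% of all genes tested were called lower and 9.74% higher). The hypothetical gene *POX_a00096*, directly before glycogen synthase, fell from 427 and 417 FPKM to 174, 208 and 245 FPKM (log2 difference -0.75, standard error 0.12, limma adjusted p = 0.018). The cofilin gene *POX_d05515*, for a protein that severs actin filaments, lies 3 places before the branching enzyme and rose from 390 and 327 FPKM to 636, 657 and 637 FPKM (log2 difference 1.12, standard error 0.11, limma adjusted p = 0.0078). Of the 6 genes around the phosphorylase, 0 were called by limma (0 also at an unadjusted p under 0.05). Of these, 4 were tested, with log2 differences of -0.02 to 0.20, and the other two had a mean FPKM under 1. Without GXUR001 replicate 2, neither *POX_a00096* nor *POX_d05515* was called, and without TE4-10 replicate 1 *POX_a00096* was not.

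Likeness of pattern was measured as the root mean square difference of log2 rescaled FPKM over the 5 libraries, with the mean of each gene subtracted. The comparison held 6895 annotated genes averaging at least 10 FPKM, the glycogen gene itself included. The 3 glycogen genes were not the nearest to each other. Seen from the synthase, the branching enzyme was at place 462 (0.22) and the phosphorylase at place 1598 (0.34). Seen from the phosphorylase, the synthase was at place 104 and the branching enzyme at place 373. Seen from the branching enzyme, the synthase was at place 1111 and the phosphorylase at place 4984 (0.47), farther than most of the genes. This measure does not adjust for the size of a change, so genes that fall together by unlike amounts lie apart. The far places of the phosphorylase in large part restate its larger log2 difference (-1.53, against -0.87 for the synthase and -0.59 for the branching enzyme). They do not show an unlike direction.

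The genes most like glycogen synthase were *POX_a01553* (0.03), *POX_b02562* (0.04) and *POX_b02363* (0.04). Those most like the branching enzyme were *POX_b03239*, *POX_a00332* and *POX_b02387*, at 0.05 each. The phosphorylase had no gene as near, and its closest were *POX_b02354* (0.07), *POX_c04600* (0.09) and *POX_f08387* (0.11). The study lists the first 8 of these 9 as hypothetical proteins, and *POX_f08387* has no product name in the tables used here. With 1 library left out, 0 to 3 of the 3 nearest genes stayed the same, so these neighbours describe the 5 libraries only.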

How the data were processed

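The deposited values are FPKM, in 1 file for each library. The submitters' processing notes name bcl2fastq and HISAT2 without versions, and by the paper clean reads were matched to the genome of strain HP7-1. The counting tool, strand handling and annotation version are not given in the sources used here, and reads shared by near-identical genes could have been split. No test for counts was applied to FPKM. Files held 11159 rows, of which 1337 are outside the annotation.

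Median-ratio scaling used factors of 0.879 to 1.15. The 9636 genes averaging at least 1 FPKM were tested on log2(rescaled FPKM + 1), a scale that understates the change of low genes, with limma 3.58.1 in R 4.3.3 (eBayes with a trend, 3 residual and 2.45 prior degrees of freedom) and Benjamini-Hochberg adjustment over all genes. The fit was also run on simulated counts of a fixed dispersion. Whether these vary like the real libraries was not tested, so nothing is read from that run. An exact permutation test of 2 against 3 libraries cannot go below a one-sided p of 0.1, so none was used. P-values measure the spread between these libraries, which the paper calls biological replicates.

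Named genes were the 3 glycogen genes, the pathway and starch genes the study names, actin, *PoxAmyR*, flanking genes that were called and the 3 genes of most similar profile. All genes and lists were chosen with earlier results of these data known. Gene order came from a reference table (assembly ASM172317v3). Figures were drawn with matplotlib 3.10.9. Alternatives were FPKM as deposited, upper quartile scaling (percentile 75), scaling to actin, a pseudocount of 0.1 (for ratios, of 1 on both values), no filter, a mean of at least 10 FPKM, no trend, annotated genes only, the replicate number as a block, and each library left out.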

Additional observations from a re-analysis of the deposited data

How the results depend on the processing

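No alternative changed the direction of the 3 glycogen genes or of the ratios between them. With FPKM as deposited the log2 differences were -1.15 for *POX_a00097*, -0.87 for *POX_d05520* and -1.80 for *POX_c03592*. That of *POX_c03592* was -1.59 with upper quartile scaling and -1.45 when scaled to actin. With 1 library left out they ran from -0.96 to -0.79 for *POX_a00097*, from -0.75 to -0.45 for *POX_d05520* and from -1.57 to -1.48 for *POX_c03592*. The log2 change of the ratios then ran from -0.76 to -0.59 for phosphorylase over synthase, from -1.05 to -0.84 for phosphorylase over branching enzyme and from -0.40 to -0.14 for synthase over branching enzyme. Relative to actin these ranges were -0.84 to -0.77 for the synthase, -0.66 to -0.40 for the branching enzyme and -1.56 to -1.38 for the phosphorylase.

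Counts of calls depended on the scaling and on single libraries, and the cause was not tested. Over all genes tested, 1718 were called (779 lower, 939 higher), against 2661 with FPKM as deposited (2198 lower, 463 higher) and 785 scaled to actin (193 lower, 592 higher). With FPKM as deposited, 2 starch genes and 5 flanking genes were called lower. Scaled to actin, 1 pathway gene and 0 flanking genes were called lower by limma (1 lower and 2 higher had an unadjusted p under 0.05), and with no filter 2 starch genes were called higher. With 1 library left out, 17 to 1836 genes were called (1 to 767 lower, 16 to 1069 higher), the fewest without GXUR001 replicate 2. These fits called 0 to 2 pathway genes lower and 0 to 1 higher, 0 to 1 starch genes lower and 0 to 1 higher, and 0 to 1 flanking genes lower and 0 to 2 higher. The log2 difference of *POX_a01789* ran from -0.0044 without TE4-10 replicate 1 to 0.72 without TE4-10 replicate 3, and that of actin from -0.20 to 0.0375, respectively.

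Replicate numbers 1 and 3 occur in both strains. The deviations of same-numbered libraries from their strain means had correlations of -0.01 and 0.04 across genes. In TE4-10 the deviations of replicates 1 and 3 are mirror images of each other, so these correlations rest on a single TE4-10 contrast. They cannot decide whether same-numbered libraries share more than a number. With the replicate block limma called 0 genes, 0 lower and 0 higher (2476 had an unadjusted p under 0.05), and so 0 pathway, starch or flanking genes in either direction, with 1 residual degree of freedom left. Where an arm keeps 1 library, that library is assumed to vary like the others. FPKM gives no read numbers, so counting error could not be set beside the spread.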
